A study of Caenorhabditis elegans with 32 samples.

Results

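Small RNA counts were described at meg-3, meg-4 and pptr-1, the genes that carry the mutations of this Caenorhabditis elegans series. They were chosen by gene identifier and make up 3 of the 46779 features counted in each of 32 small RNA libraries from dissected gonads. Each value is a number of small RNA reads assigned to a gene, not a transcript level.

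MEG-3 and MEG-4 are intrinsically disordered proteins that gather at the surface of P granules, the RNA-rich germ granules of C. elegans, and assemble these granules in the embryonic germ lineage. PPTR-1 is a regulatory subunit of protein phosphatase 2A that keeps P granules stable during embryonic cell division and acts on the phosphorylation of MEG proteins. In this germline, small RNAs of the 22G class are made on messenger RNA templates and bind Argonaute proteins, so a transcribed gene can itself be a source of small RNA counts.

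The transgene mjIs134 on chromosome II (Pmex-5::gfp::h2b::tbb-2) marked the germline in all animals, which were grown at 20 °C and were fed E. coli OP-50. The mutants with the alleles meg-3(tm4259) and meg-4(ax2026), called meg mutants here, formed 4 groups. Long-term mutants had been kept for over 80 generations, F15 mutants came from a cross with wild type 15 generations earlier, and mutant F2 came from a paternal and from a maternal cross. In the paternal cross a meg male was mated to a wild-type hermaphrodite, and in the maternal cross a wild-type male to a meg hermaphrodite. Both crosses also gave wild-type F2, and a wild-type group of the strain SX1263 completed the 21 libraries extracted with a column kit. The 11 libraries extracted with phenol held pptr-1(tm3103) mutants and wild type, each untreated and as F6 descendants of worms given double-stranded gfp RNA. There were 2 libraries of F6 pptr-1 mutants and 3 of each other group. The labels do not say that replicates came from separate cultures, so p-values measure the spread between these libraries, which may be technical. Extraction coincided with experiment, so each test stayed within an extraction.

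Depth set how finely each gene was read. Replicate 3 of the long-term mutants held 126214 feature counts, the others 2684285 to 14871375. A level of 3 counts, taken as the detection floor, was 23.8 counts per 1e+06 feature counts (CPM) in that library and 0.202 to 1.12 CPM elsewhere. Long-term results are therefore also given without it. The gonad label was compared with microRNA loci: the mir-35 to mir-42 loci of germline and embryo summed to 0 to 57 counts per column-kit library and 16 to 66 per phenol library. Markers of muscle (mir-1), neurons (mir-124, lsy-6) and hypodermis (the 1 locus found of lin-4 and let-7) had 0 counts in every library. MicroRNA loci held few counts here, as even mir-35 to mir-42 summed to at most 6.39 CPM. Counts of 0 at the other markers therefore cannot bear on the gonad label. The gfp transgene had counts throughout, at 31.7 to 84.2 CPM in column-kit and 46.3 to 1535 CPM in phenol libraries. In bulk gonads, fewer cells of a type and fewer small RNAs per cell cannot be told apart.

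The genes meg-3 and meg-4 lie on chromosome X and pptr-1 on chromosome V (WBcel235 annotation). The meg-3 gene (WBGene00001569) spans 1986469 to 1989607 on the minus strand, with 2775 exonic bases in 7 exons. The meg-4 gene (WBGene00016485) spans 1682954 to 1686419 on the plus strand, with 2712 exonic bases in 7 exons, and ends 300049 bases before the meg-3 interval. The pptr-1 gene (WBGene00012348) covers 16357521 to 16367574 on the plus strand, with 2735 exonic bases in 10 exons. Each has 1 annotated transcript, and none overlaps another annotated feature. A count covers the whole gene, so it includes any part outside a deletion, and the extents of the deleted parts are not given in the sources used here. All 3 genes passed the filter on low counts in both extractions.

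Small RNAs of meg-3 fell in all 4 groups of meg mutants. Long-term libraries had 1.86, 4.66 and 0 CPM (replicates 1 to 3), where the 0 allows up to 29.2 CPM by an exact 95% interval for counting error alone. F15 libraries had 5.90, 3.36 and 2.29 CPM. Mutant F2 had 5.10, 2.33 and 5.55 CPM in the paternal cross (replicates 1, 3 and 4) and 3.42, 2.93 and 2.68 CPM in the maternal cross. These 12 libraries were all low, with 0 to 48 counts of meg-3 each. Wild-type F2 had 20.7, 20.4 and 29.9 CPM in the paternal cross and 21.5, 9.94 and 20.8 CPM in the maternal cross. Wild type had 10.3, 16.4 and 15.1 CPM. The 12 mutant libraries (median 3.15 CPM) did not overlap the 9 non-mutant column-kit libraries (median 20.4 CPM), although the floor of long-term replicate 3 lay above most of the non-mutant values. Such non-overlap of all mutant and non-mutant column-kit libraries was seen at 0.782% of tested features, and at 0.841% without long-term replicate 3. The residual counts stayed above the floor in the other 11 mutant libraries, the lowest being 1.86 CPM.

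**Figure D1:**
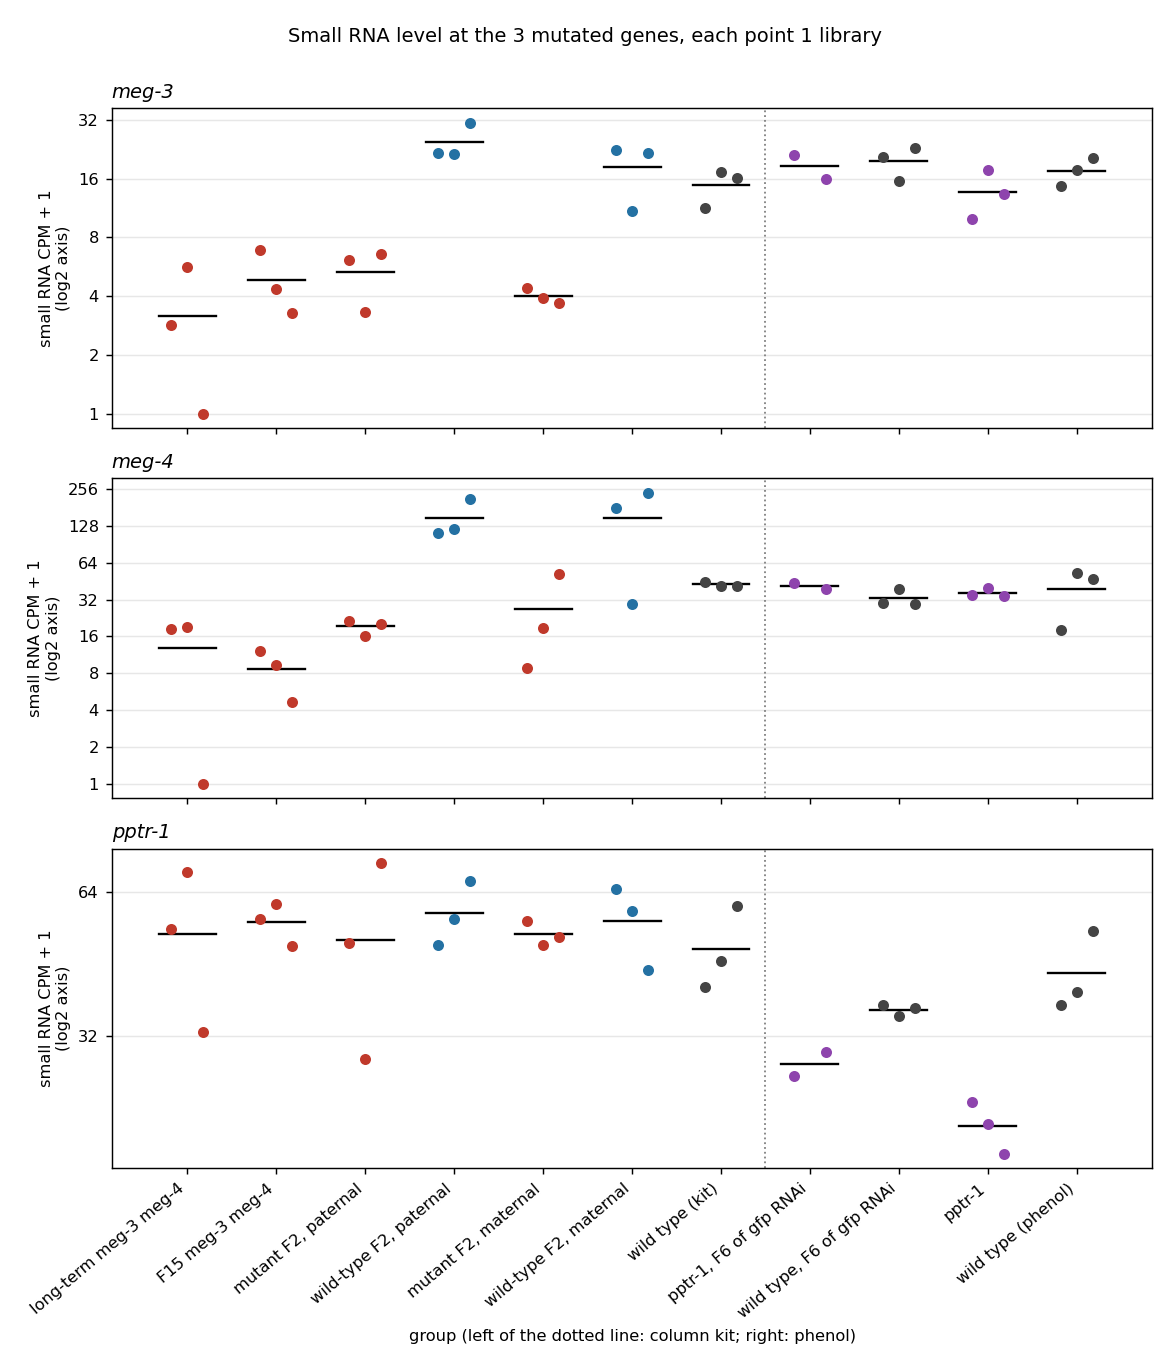
Small RNA level in CPM of meg-3, meg-4 and pptr-1 in each of the 32 libraries, by group, plotted as CPM + 1 on a log2 axis, with a point for each library and a black line for the group mean. Column-kit groups stand left and phenol groups right of the dotted line. Mutant libraries of meg-3 sit at or below 5.90 CPM and non-mutant column-kit libraries at or above 9.94 CPM, while meg-4 spans 28.4 to 237 CPM in the wild-type F2.

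Fold changes were fitted with edgeR and adjusted over all features of an extraction, and features with an adjusted p under 0.05 were called. In long-term mutants meg-3 had a log2 fold change of -1.58 relative to wild type (SE 0.44, adjusted p = 0.0126), where 27% of tested features were called. Without long-term replicate 3 it was -1.57 (adjusted p = 0.0159), without replicate 2 it was -2.62 (adjusted p = 0.00975), and without replicate 1 it was -1.22 and no longer called (adjusted p = 0.0963). In F15 mutants it was -1.74 (SE 0.37, adjusted p = 0.00485), against 8.78% of features called. With the replicate number as a block, which pairs the libraries of these groups, the F15 value was -1.81 with an adjusted p of 0.0709, and 4.82% of features were called.

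The F2 give the comparison within a cross. Against wild-type F2, mutant F2 had a log2 fold change of meg-3 of -2.40 after the paternal cross (SE 0.39, adjusted p = 0.00157, 2.28% of features called). The maternal cross gave -2.39 (SE 0.40, adjusted p = 0.00187, 2.83% called). With the replicate block, which pairs the libraries here too, both calls held and the paternal comparison called 6.37% of features. The crosses differed by 0.01 (SE 0.64, 95% interval -1.33 to 1.35), and this test of the difference between crosses called 0.0196% of features. Libraries of mutant and wild-type F2 with the same number came out at 24.6%, 11.4% and 18.5% of the wild-type level in the paternal cross, and at 15.9%, 29.5% and 12.9% in the maternal cross. Every mutant library was thus far below its numbered partner. Against wild type rather than wild-type F2, the mutant F2 of the paternal cross had a log2 fold change of -1.49 (adjusted p = 0.0218, 9.19% of features called). That call was lost without wild-type replicate 2 (-1.38, adjusted p = 0.0800) and without mutant F2 replicate 3 (-1.22, adjusted p = 0.0702) or 4 (-1.65, adjusted p = 0.0544). The mutant F2 of the maternal cross had -1.77 (adjusted p = 0.00254, 34% called). Over the mean of the 4 mutant groups against the mean of the 3 non-mutant groups the value was -2.16 (SE 0.21, adjusted p = 4.72e-07), with 14.1% of features called.

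Small RNAs of meg-4 were lower in the mutants than in the non-mutant groups of the crosses, with wide spread. Long-term libraries had 17.5, 18.0 and 0 CPM, and F15 libraries 11.1, 8.41 and 3.66 CPM. Mutant F2 had 20.4, 15.2 and 19.3 CPM in the paternal cross and 7.77, 17.9 and 51.1 CPM in the maternal cross. Replicate 4 of the maternal mutant F2 was the highest mutant library and lay above the 3 libraries of the wild-type group. Wild-type F2 had 111, 120 and 214 CPM in the paternal cross and 179, 28.4 and 237 CPM in the maternal cross. Wild type had 43.6, 40.3 and 40.6 CPM. The wild-type F2 were the high libraries, with replicate 3 of the maternal cross as the exception below wild type. Mutant libraries (0 to 51.1 CPM) and non-mutant column-kit libraries (28.4 to 237 CPM) overlapped only through the mutant library at 51.1 CPM. The other mutant libraries were at or below 20.4 CPM.

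The log2 fold change of meg-4 against wild-type F2 was -2.98 in the mutant F2 of the paternal cross (SE 0.64, adjusted p = 0.0140). This call was lost without wild-type F2 replicate 4 (-2.65, adjusted p = 0.0556) and without mutant F2 replicate 1, 3 or 4 (-3.13, -2.87 and -2.98, adjusted p = 0.0612, 0.0640 and 0.0779). In the maternal cross it was -2.35 (SE 0.61, adjusted p = 0.0415), and -2.26 with the replicate block (adjusted p = 0.291). The maternal call was lost without wild-type F2 replicate 1 or 4 (-2.29 and -1.72, adjusted p = 0.0786 and 0.240) and without mutant F2 replicate 1 or 3 (-1.93 and -2.16, adjusted p = 0.161 and 0.174). The crosses differed by 0.62 (SE 0.84, 95% interval -1.14 to 2.39), a width that leaves room for a difference in either direction. By number, mutant F2 reached 18.4%, 12.7% and 9.03% of wild-type F2 in the paternal cross. In the maternal cross they reached 4.34%, 63.0% and 21.5%, where the number with 63.0% is the one with the low wild-type F2 library.

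Against wild type the mutants were less uniform at meg-4. In F15 mutants the log2 fold change was -2.34 (SE 0.63, adjusted p = 0.0243). The F15 call was lost without wild-type replicate 1 or 2 (-2.27 and -2.38, adjusted p = 0.0615 and 0.0519) and without F15 replicate 2 or 3 (-2.38 and -2.11, adjusted p = 0.0639 and 0.124). In long-term mutants it was -0.88 (SE 0.67, adjusted p = 0.348, 95% interval -2.28 to 0.52), and -0.82 without replicate 3 (adjusted p = 0.411). The mutant F2 had -1.01 in the paternal cross (adjusted p = 0.305) and -0.21 in the maternal cross (adjusted p = 0.818, 95% interval -1.45 to 1.03), neither called. The paternal value was called without the filter on low counts (-1.10, adjusted p = 0.000377) and in a fit of only these groups (-1.07, adjusted p = 0.00922). Over the mean of the 4 mutant groups against the mean of the 3 non-mutant groups, meg-4 had -2.48 (SE 0.33, adjusted p = 2.43e-05).

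**Figure D2:**
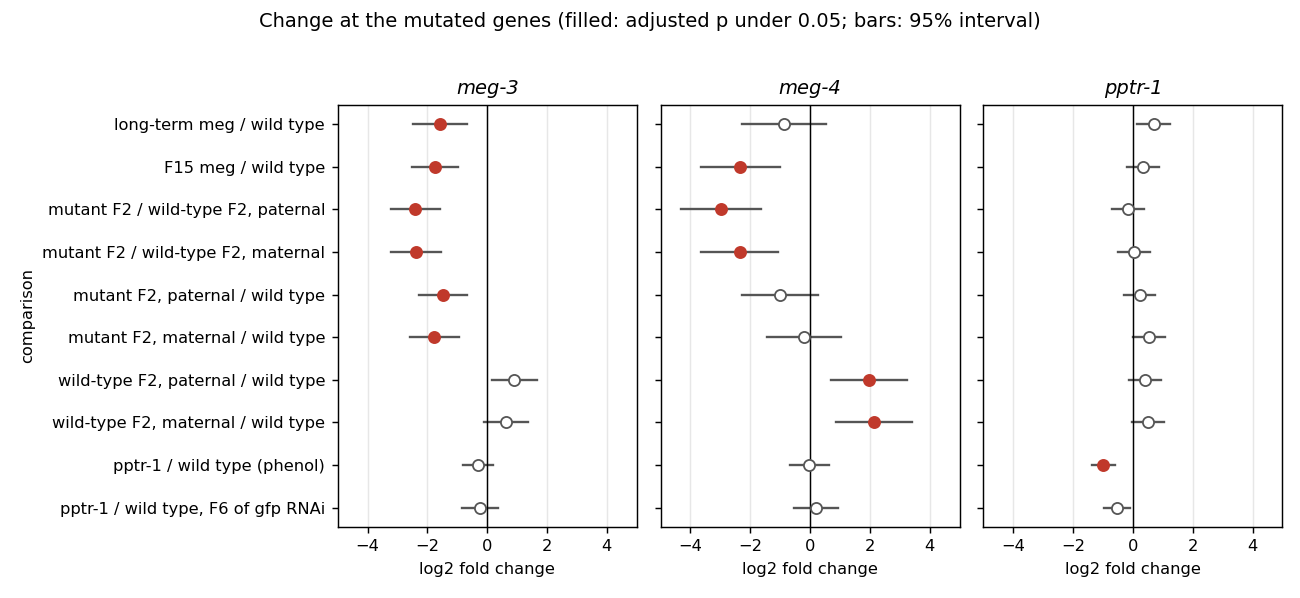
Log2 fold changes of meg-3, meg-4 and pptr-1 in each comparison, with 95% intervals as lines and filled points where the adjusted p was under 0.05. The meg-3 values lie between -2.40 and -1.49 in the mutant groups, and meg-4 is on opposite sides of 0 in mutant F2 against wild-type F2 and in wild-type F2 against wild type.

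The wild-type F2 addressed whether small RNAs of the intact genes returned to the wild-type level after a cross with a meg mutant. At meg-4 they were higher than wild type, with a log2 fold change of 1.97 after the paternal cross (SE 0.60, adjusted p = 0.0461, 9.49% of features called). After the maternal cross it was 2.14 (SE 0.60, adjusted p = 0.0140, 27.4% called). The paternal call was lost on leaving out any 1 of its 6 libraries (1.65 to 2.14, adjusted p = 0.0594 to 0.165). The maternal call was lost without wild-type replicate 2 (2.11, adjusted p = 0.0520) or wild-type F2 replicate 4 (1.51, adjusted p = 0.0887). At meg-3 the paternal value of 0.91 (SE 0.35, adjusted p = 0.101) and the maternal value of 0.62 (SE 0.35, adjusted p = 0.199) were not called. The maternal and paternal wild-type F2 were not called as different at meg-3 (-0.29, adjusted p = 0.819) or meg-4 (0.17, adjusted p = 0.951), in a comparison with 3.72% of features called. These comparisons, and those of the mutants with wild type, share the same 3 wild-type libraries.

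Mutant groups were also compared with each other, to ask whether generations since a cross with wild type, or its direction, mattered at these genes. None of the 3 genes was called with the filter on low counts in place. The share of features called was 5.22% for F15 against long-term mutants, 8.26% for the paternal mutant F2 against long-term mutants and 0.205% for the maternal mutant F2 against long-term mutants. It was 0.909% for F15 against the paternal mutant F2 and 5.07% for the maternal against the paternal mutant F2. At meg-4 the F15 mutants had a log2 fold change of -1.46 against long-term mutants (SE 0.68, adjusted p = 0.233) and of -1.33 against the paternal mutant F2 (SE 0.64, adjusted p = 0.488). Without the filter on low counts both were called at meg-4 (-1.39 and -1.26, SE 0.28 and 0.26, adjusted p = 2.89e-05 and 0.000113). So was the maternal against the paternal mutant F2 (0.82, SE 0.25, adjusted p = 0.0250). The fold changes hardly moved while the SE fell, and each was called in only this 1 of 12 alternative runs. At meg-3 the value for F15 against long-term mutants was -0.17 (adjusted p = 0.901).

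Levels were set against each other per kilobase of exon. At meg-3 the group means ran from 0.783 CPM per kb in long-term mutants over 1.08 in the maternal mutant F2, 1.39 in F15 mutants and 1.56 in the paternal mutant F2. The non-mutant groups followed at 5.02 CPM per kb in wild type, 6.26 in the maternal wild-type F2 and 8.54 in the paternal wild-type F2. The only neighbours in that order whose libraries did not overlap were the paternal mutant F2 and wild type, as at 32.2% of tested features. At meg-4 the order was 2.84 CPM per kb in F15, 4.36 in long-term mutants, 6.74 in the paternal mutant F2, 9.43 in the maternal mutant F2, 15.3 in wild type and 54.6 in the wild-type F2 of each cross. With all libraries kept, the step without overlap at meg-4 lay between wild type and the paternal wild-type F2, as at 35.1% of tested features. Without long-term replicate 3 the long-term mean was 1.18 CPM per kb at meg-3, above the maternal mutant F2, and 6.54 at meg-4. Among coding genes with counts, meg-4 stood at the 86.6th percentile per kb in the paternal and the 90.0th in the maternal wild-type F2, against the 64.8th in wild type. In the mutants meg-4 stood between the 51.6th and the 63.8th percentile, and meg-3 between the 36.6th and the 45.8th. The lowest of these, meg-3 in long-term mutants, was at the 39.0th without replicate 3. The coding genes with counts differed between groups, from 12901 in long-term mutants to 14726 in wild type, so percentiles also depend on that set.

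The ratio of meg-4 to meg-3 per kb was high in the wild-type F2, at 2.93 to 11.7 (median 6.65, 6 libraries), against 2.52 to 4.34 in wild type. It was 1.64 to 19.5 in the 11 meg mutant libraries with meg-3 counts (median 3.94). The widest group was the maternal mutant F2, with 2.33, 6.26 and 19.5, on 11, 17 and 16 counts of meg-3. A long-term library at 9.62 had 5 counts of meg-3, so mutant ratios carry wide counting error. The kilobases are those of the intact genes, as the deleted parts are not known here. In phenol libraries the ratio was 2.17 to 3.89 in pptr-1 mutants and 1.29 to 3.18 in wild type.

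**Figure D3:**
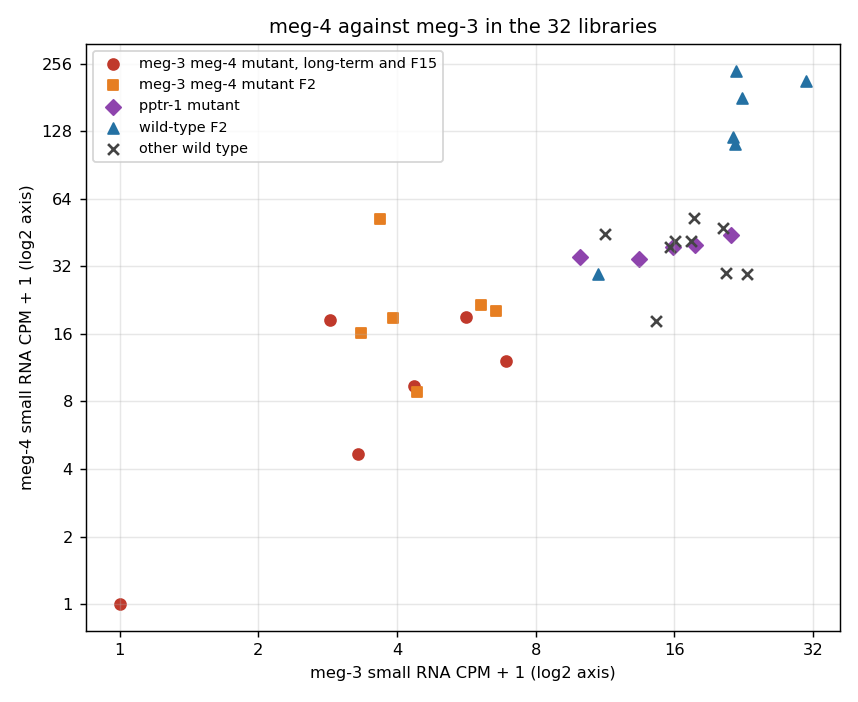
CPM of meg-4 against meg-3 in each of the 32 libraries, plotted as CPM + 1 on log2 axes, with a symbol for each class of groups. The meg mutant libraries lie at 5.90 CPM of meg-3 or lower, and the wild-type F2 lie above wild type for meg-4 except for the library at 28.4 CPM.

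Small RNAs of pptr-1 fell in pptr-1 mutants without being lost. Untreated mutants had 22.3, 20.0 and 17.2 CPM, against 36.2, 38.6 and 52.1 CPM in wild type of the same extraction. F6 mutants had 25.4 and 28.6 CPM, against 36.3, 34.3 and 35.7 CPM in F6 wild type. Mutant libraries were below wild-type libraries in both pairs, with no overlap. In the 5 mutant libraries 93 to 236 counts of pptr-1 remained, far above the floor. Such non-overlap was seen at 25.4% of features in the untreated and 44.1% in the F6 comparison, where the F6 mutants had only 2 libraries.

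The log2 fold change was -0.99 in untreated mutants (SE 0.17, adjusted p = 0.00528, 6.48% of features called). In F6 mutants it was -0.53 (SE 0.20, adjusted p = 0.140, 7.73% called), which did not pass. The F6 change minus the untreated change was 0.45 (SE 0.26, adjusted p = 0.850, 95% interval -0.12 to 1.03). That test called 0% of features with edgeR, where 667 had an unadjusted p under 0.05 and DESeq2 called 46. Over both mutant groups against both wild-type groups the value was -0.76 (SE 0.13, adjusted p = 0.00228, 16% of features called). Neither the F6 mutants against untreated mutants (0.28, adjusted p = 0.743) nor the F6 wild type against untreated wild type (-0.18, adjusted p = 0.843) differed at pptr-1 past the threshold. Each of those 2 comparisons called 0.0644% of features.

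Per kilobase, pptr-1 averaged 7.25 CPM in untreated mutants and 9.88 in F6 mutants, against 12.9 in F6 wild type and 15.5 in untreated wild type. Untreated mutants did not overlap F6 mutants, as at 29.6% of tested features. F6 mutants did not overlap F6 wild type, as at 44.1%, while the wild-type groups overlapped. Among coding genes with counts, pptr-1 stood at the 59.6th percentile in untreated mutants and the 55.5th in F6 mutants, above the median gene. The genes with counts numbered 16029 in untreated and 13857 in F6 mutants, so these percentiles do not rank the 2 groups.

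Each mutation was also read at the genes it does not carry. In the column-kit libraries pptr-1 had 27.7 to 72.6 CPM in the 12 meg mutant libraries (median 51.5) and 39.6 to 66.5 CPM in the 9 non-mutant ones (median 55.1). The ranges overlapped and pptr-1 was called in no column-kit comparison. The nearest was long-term mutants against wild type (0.69, SE 0.27, adjusted p = 0.0631), which passed without long-term replicate 3 (0.76, adjusted p = 0.0404) or wild-type replicate 3 (0.85, adjusted p = 0.0498). In the phenol libraries meg-3 had 8.99 to 20.2 CPM in 5 pptr-1 libraries and 13.6 to 22.0 CPM in 6 wild-type ones. There meg-4 had 33.5 to 42.9 CPM in pptr-1 mutants and 17.2 to 51.7 CPM in wild type. Neither was called in untreated (-0.31 and -0.02) or F6 mutants (-0.24 and 0.20).

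Genes of the same pathway were taken as 4 lists of 25 genes in all: the MEG family, P granule components, regulators of P granule position and protein phosphatase 2A subunits. In long-term mutants against wild type, 5 were called higher and 3 lower, beside 27% of all features called, with a median log2 fold change of 0.35 against 0.01 over all features. This count is near the share over all features, so the genes named next do not set the lists apart from other genes. Scaling by total counts shifted the median of all features in this comparison to -0.42 and left 0 of the 25 called higher and 4 lower, so the directions given next are relative to the typical feature. Without long-term replicate 3 the counts were again 5 higher and 3 lower.

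Of 12 P granule components, mip-1 and mip-2, which encode LOTUS domain proteins that bind the helicase GLH-1, were higher in long-term mutants (0.82 and 0.77, adjusted p = 0.00750 and 0.00163). The mip-2 level was 242 ± 38.8 CPM in long-term mutants and 183 ± 11.6 CPM in wild type (SD, n = 3 each). The PGL protein gene pgl-2 was lower (-0.97, adjusted p = 0.0155), with 14.2 ± 8.39 CPM in long-term mutants and 27.5 ± 3.51 CPM in wild type, and its call was lost without long-term replicate 1 (-0.75, adjusted p = 0.126) or 2 (-1.09, adjusted p = 0.0668). Of 5 phosphatase 2A subunits besides pptr-1, the B subunit gene sur-6 and the scaffold gene paa-1 were higher (0.79 and 0.71, adjusted p = 0.00588 and 0.0105), and so was the catalytic subunit gene let-92 (0.72, adjusted p = 0.0219). The paa-1 call was lost without long-term replicate 2 (0.60, adjusted p = 0.0683). The centrosomal B subunit gene rsa-1 was lower (-0.99, adjusted p = 0.0116), at 7.65 ± 0.495 CPM in long-term mutants and 20.5 ± 5.64 CPM in wild type. Its call was lost without wild-type replicate 3 (-0.78, adjusted p = 0.0525) or long-term replicate 1 (-0.91, adjusted p = 0.0675). Of 6 position regulators, the polarity kinase gene par-1 was called lower (-0.59, adjusted p = 0.0247). The let-92 call was lost without wild-type replicate 1 or 2 or long-term replicate 2 (adjusted p = 0.0676, 0.0817 and 0.110), and the par-1 call without wild-type replicate 1 or 2 or long-term replicate 1 (adjusted p = 0.0730, 0.0585 and 0.102). The genes let-92 and par-1 fall outside the naming rule and were added after their values were seen. These genes, pgl-2 apart, were called in the same direction in the maternal wild-type F2 against wild type. There mip-1 had 0.69, mip-2 0.77, sur-6 0.74, paa-1 0.56, let-92 0.59, rsa-1 -1.07 and par-1 -0.62. Those calls were lost in 1 (rsa-1) to 9 (paa-1) of 12 alternative runs.

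The closest relatives of the mutated genes showed no called change. In long-term mutants the log2 fold change was 0.01 at meg-1 and 0.02 at meg-2, the other genes of the MEG family. The paralog pptr-2 had -0.06 in untreated pptr-1 mutants (adjusted p = 0.910) and 0.39 in long-term meg mutants (adjusted p = 0.200). Of the 25 listed genes, mip-2 was the 1 called in F15 mutants against wild type (8.78% of features called), and with the replicate block it was not called (0.56, adjusted p = 0.0936). It was also lost without wild-type replicate 1 (adjusted p = 0.0604) or 2 (adjusted p = 0.0694) or F15 replicate 3 (adjusted p = 0.0903). Wild-type F2 against wild type had 3 higher and 0 lower in the paternal cross (9.49% of features called) and 6 higher and 2 lower in the maternal cross (27.4% called), counts again near those shares. Without wild-type replicate 2 or wild-type F2 replicate 1 or 4 the paternal count was 0, and without wild-type replicate 1 it was 1. The maternal count was 3 without wild-type replicate 1, 4 without wild-type F2 replicate 1, and 5 without wild-type replicate 2 or wild-type F2 replicate 3. Within either cross, mutant against wild-type F2 called 0 of the 25, beside 2.28% (paternal) and 2.83% (maternal) of features. In pptr-1 mutants 0 of the 25 were called untreated (6.48% of features called) and 0 as F6 (7.73% called). The gene pgl-2 was the 1 called over both pairs together (0.37, adjusted p = 0.0302, beside 16% of features). When 1 library was left out, the call held for the omission of F6 wild-type replicate 3 or of untreated mutant replicate 1 or 5, and omission of any of the other 8 libraries ended it (adjusted p = 0.0580 to 0.114).

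Neighbours of the mutated genes were examined within 20 kb of either side. They were 12 features around meg-3 (9 tested), 15 around meg-4 (7 tested) and 19 around pptr-1 (3 tested). In long-term mutants against wild type, 3 of 9 neighbours of meg-3 and 4 of 7 neighbours of meg-4 were called higher and 0 lower, beside 27% of all features called, a share that the count around meg-3 is near. Those around meg-3 were linc-6, F52D2.14 (2.88, adjusted p = 0.00272) and Y40A1A.5 (1.83, adjusted p = 0.0496). The Y40A1A.5 call was lost in 8 of 12 alternative runs, and linc-6 and F52D2.14 overlap each other. Those around meg-4 were C36C9.10, R09H3.3 (1.75, adjusted p = 0.000107), C36C9.5 (2.85, adjusted p = 0.00457) and R09H3.2. Without long-term replicate 3 the counts were 3 of 9 and 3 of 7, as R09H3.2 beside meg-4 was then not called (2.40, adjusted p = 0.0582). That call was also lost without wild-type replicate 2 or 3 or long-term replicate 2 (adjusted p = 0.112, 0.0881 and 0.172). F15 mutants had 2 of 9 higher and 1 lower around meg-3, and 1 of 7 higher around meg-4, beside 8.78% of features. With the replicate block the F15 counts were 1 higher and 0 lower around meg-3 and 1 higher around meg-4, and the lower neighbour F52D2.12 was not called (-0.87, adjusted p = 0.148). The F52D2.12 call was also lost without wild-type replicate 2 (-0.52, adjusted p = 0.253) or any 1 of the F15 libraries (adjusted p = 0.0552 to 0.119), and without F15 replicate 3 the count around meg-3 was 1 higher and 0 lower. Within a cross, mutant against wild-type F2 called 1 of 9 higher around meg-3 and 0 of 7 around meg-4 in each cross, beside 2.28% (paternal) and 2.83% (maternal) of features. With the replicate block these were 2 of 9 higher around meg-3 and 1 of 7 lower around meg-4 in the paternal cross, and 1 of 9 and 1 of 7 higher in the maternal cross. Around pptr-1, 0 of 3 were called in untreated or in F6 pptr-1 mutants by edgeR, beside 6.48% and 7.73% of features. Over both mutant groups against both wild-type groups 1 of 3 was called higher, beside 16% of features. It was slc-9B.2 (1.85, adjusted p = 0.0287), a call lost in 6 of 15 alternative runs.

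The neighbour called in all 4 of these comparisons was linc-6, a long intergenic RNA gene (chromosome X, 1982710 to 1982883, minus strand) that ends 3586 bases from meg-3. Its level was 3244, 3186 and 2686 CPM in long-term and 2293, 2590 and 3878 CPM in F15 mutants, against 656, 674 and 519 CPM in wild type. Mutant F2 had 2710, 2354 and 2496 CPM in the paternal and 3798, 2983 and 3004 CPM in the maternal cross. Wild-type F2 had 1039, 746 and 891 CPM in the paternal and 1553, 1627 and 1250 CPM in the maternal cross. All mutant libraries were above all non-mutant ones, the opposite order of meg-3, as at 0.782% of tested features in either direction. The log2 fold change of linc-6 was 2.69 in long-term mutants (SE 0.27, adjusted p = 3.69e-06; 2.78 without replicate 3) and 2.46 in F15 mutants (SE 0.27, adjusted p = 1.23e-05; 2.33 with the replicate block, adjusted p = 0.0539). Against wild-type F2 it was 1.52 in the paternal (adjusted p = 0.00256) and 1.27 in the maternal mutant F2 (adjusted p = 0.00941). The maternal call was lost without wild-type F2 replicate 4 (1.20, adjusted p = 0.0508).

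Higher linc-6 was also called in some groups without the meg-3 mutation, and the cause was not tested. In the phenol libraries it had 1962, 1458 and 1484 CPM in untreated pptr-1 mutants, against 622, 1022 and 913 CPM in wild type. F6 pptr-1 mutants had 1791 and 1765 CPM, against 530, 741 and 547 CPM in F6 wild type. The log2 fold changes were 1.04 untreated (adjusted p = 0.0169; 0.88 and 0.0680 without wild-type replicate 1) and 1.41 in F6 (adjusted p = 0.00596; 1.38 and 0.0603 without mutant replicate 2). In the maternal wild-type F2, which carry intact meg-3, linc-6 was also higher than wild type (1.57, adjusted p = 0.000507). That call was lost in 1 of 12 alternative runs (adjusted p = 0.0746). In the paternal wild-type F2, which also carry intact meg-3, linc-6 was not called against wild type. The linc-6 gene lies inside the pseudogene WBGene00018690 of the opposite strand and overlaps the non-coding RNA gene F52D2.14, and the strand setting of the counting is not given in the sources used here. Its counts and theirs are therefore uncertain.

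**Figure D4:**
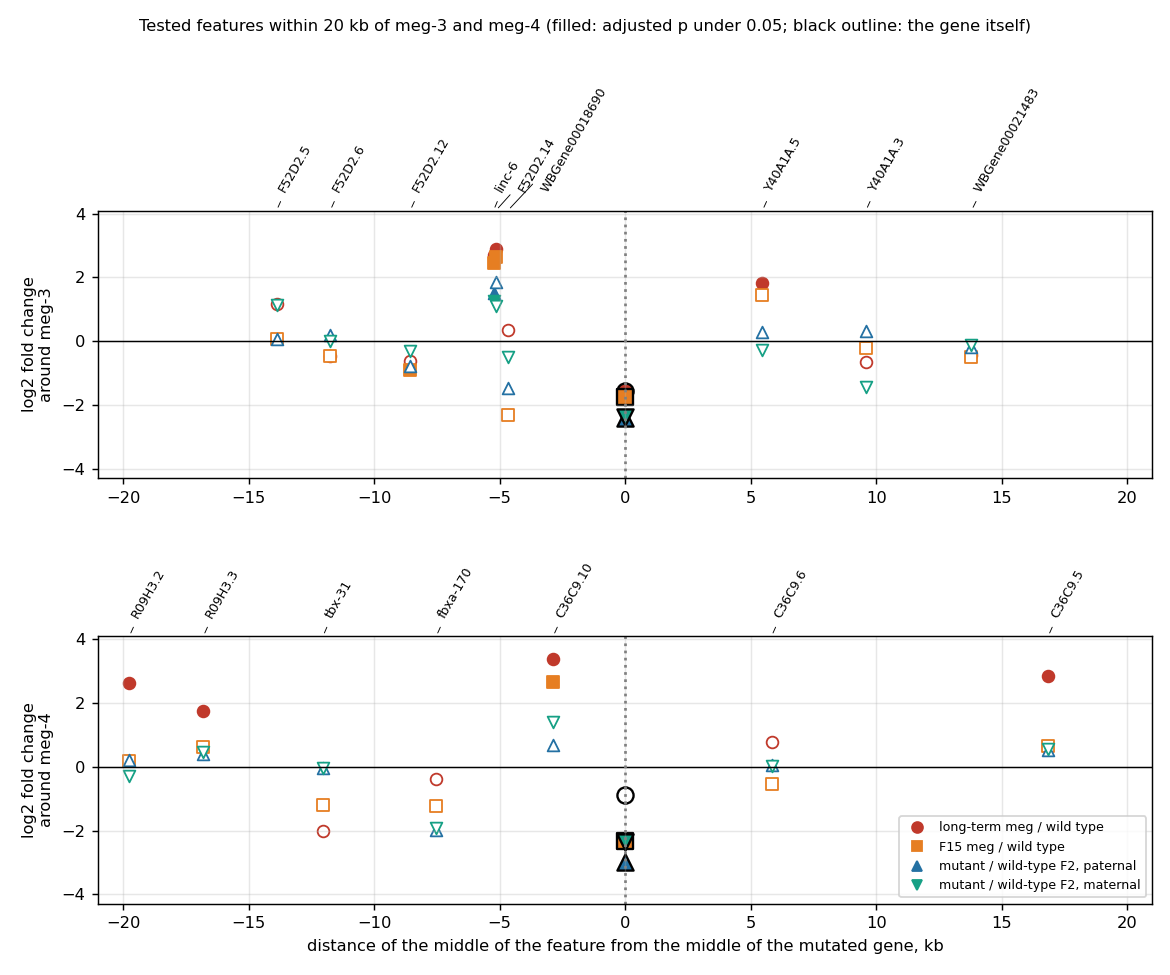
Log2 fold changes of tested neighbours of meg-3 and meg-4 against the distance in kb between the middles of feature and gene, in long-term and F15 mutants against wild type and in mutant against wild-type F2 of each cross, with called features filled and the gene itself outlined in black at 0. In long-term mutants linc-6 stands at 2.69 and C36C9.10 at 3.38, while meg-3 and meg-4 lie below 0.

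Beside meg-4, the non-coding RNA gene C36C9.10 (chromosome X, 1681752 to 1681886, 1068 bases away) had 30.9, 44.1 and 71.3 CPM in long-term and 17.8, 22.0 and 45.2 CPM in F15 mutants, against 6.26, 3.85 and 5.98 CPM in wild type. Mutants and wild type did not overlap, as at 45.1% of features in the long-term and 24.5% in the F15 comparison, and the log2 fold changes were 3.38 in long-term (SE 0.49, adjusted p = 0.000111; 3.21 without replicate 3) and 2.65 in F15 mutants (SE 0.46, adjusted p = 0.000807). It was higher in wild-type F2 than in wild type too, by 2.21 in the paternal (adjusted p = 0.0111) and 2.35 in the maternal cross (adjusted p = 0.00143). The paternal call was lost without wild-type replicate 2 (2.02, adjusted p = 0.0549) or wild-type F2 replicate 4 (2.02, adjusted p = 0.0603). Mutant F2 against wild-type F2 was not called at C36C9.10 (0.68 and 1.40, adjusted p = 0.642 and 0.0933).

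The F-box gene fbxa-170 (chromosome X, 1676205 to 1678121, 4833 bases from meg-4) resembled meg-4 in the wild-type F2. Wild-type F2 had 67.0, 26.6 and 74.9 CPM in the paternal and 81.9, 14.4 and 60.5 CPM in the maternal cross, against 10.1, 8.54 and 14.3 CPM in wild type. Replicate 3 was the lowest of the maternal wild-type F2 here as at meg-4. The log2 fold changes were 2.48 in the paternal (SE 0.53, adjusted p = 0.0122) and 2.52 in the maternal wild-type F2 (SE 0.53, adjusted p = 0.00227). The paternal call was lost without wild-type replicate 2 (2.32, adjusted p = 0.0579) or wild-type F2 replicate 4 (2.24, adjusted p = 0.0622). Mutant F2 against wild-type F2 had -1.98 in the paternal (adjusted p = 0.0534) and -1.92 in the maternal cross (adjusted p = 0.0537), just outside the threshold. The mutant F2 means (13.8 CPM paternal, 12.1 maternal) were not below wild type (11.0), while at meg-4 they were lower but not called. Long-term and F15 mutants averaged 4.07 and 4.28 CPM of fbxa-170, neither called against wild type. Over the mean of the 4 mutant groups against the 3 non-mutant groups fbxa-170 was called lower, as was meg-4. Its value was -1.79 (adjusted p = 0.000171), beside 14.1% of features called. In F6 pptr-1 mutants fbxa-170 was called higher than in F6 wild type (1.88, adjusted p = 0.0334), a call lost in 4 of 11 alternative runs. There meg-4 was not called (0.20). Untreated means of fbxa-170 were 24.4 CPM in pptr-1 mutants and 15.1 in wild type. In the maternal wild-type F2, 6 of 7 tested neighbours of meg-4 were called higher than wild type and 2 of 9 neighbours of meg-3, beside 27.4% of features, a share that the count around meg-3 is near. In the paternal wild-type F2 these were 2 of 7 and 0 of 9, beside 9.49% of features.

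**Figure D5:**
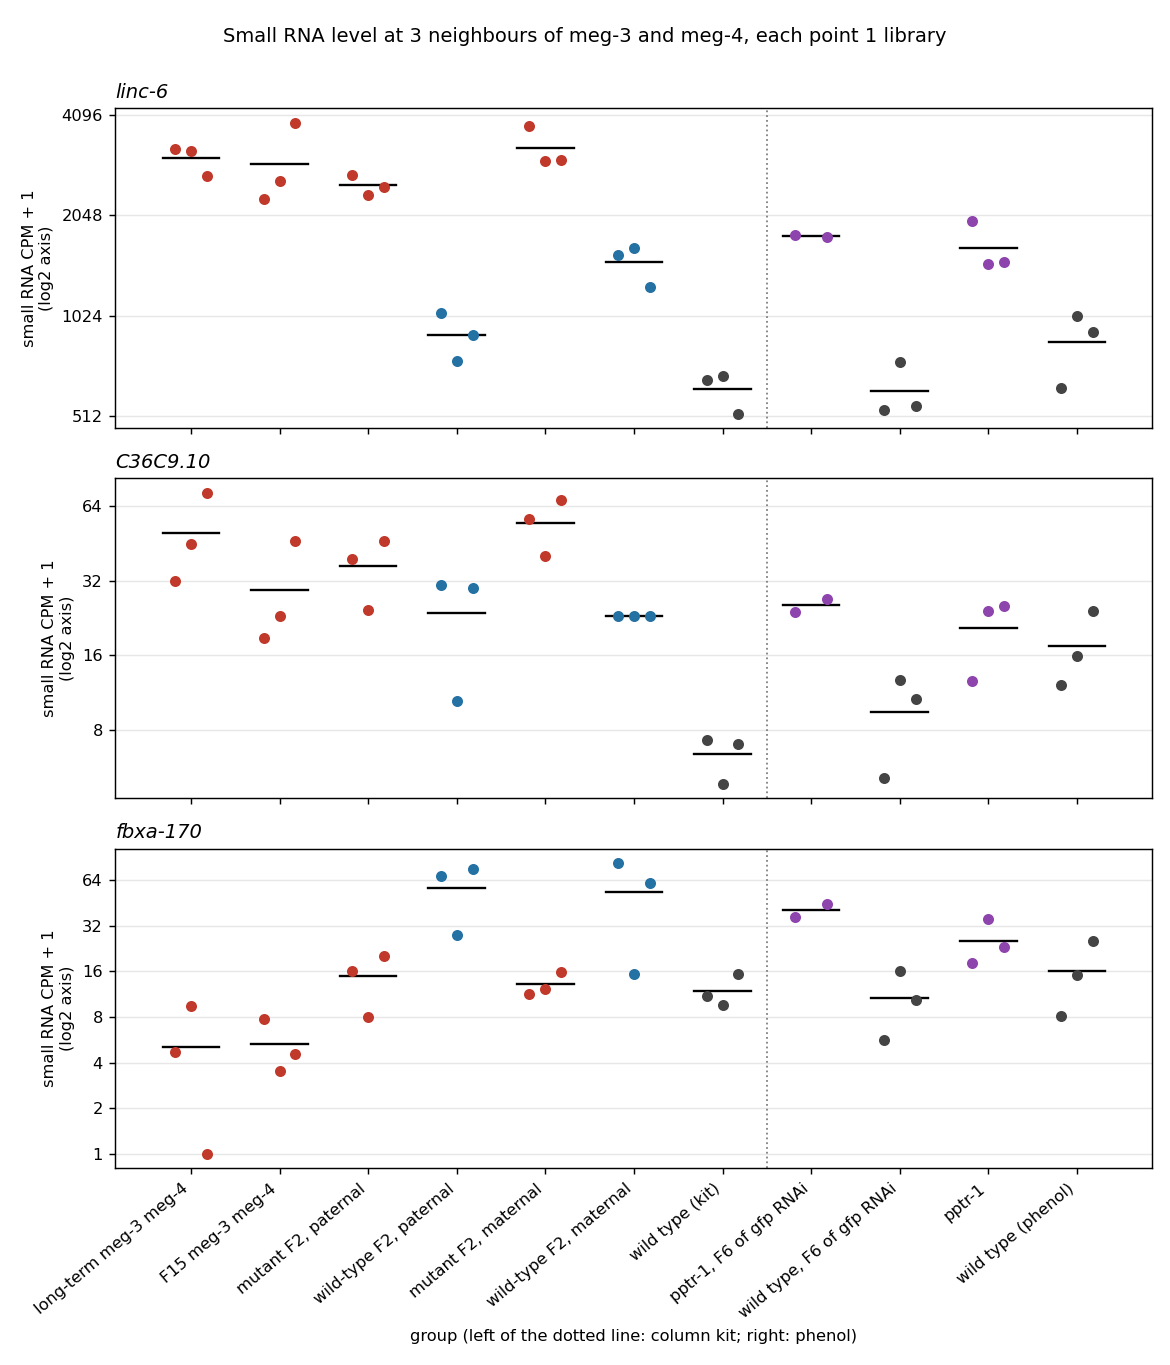
CPM of linc-6, C36C9.10 and fbxa-170 in each library by group, plotted as CPM + 1 on log2 axes, with a black line for the group mean and phenol groups right of the dotted line. The linc-6 level is 2293 CPM or more in the meg mutant libraries and 1627 CPM or less in the non-mutant column-kit libraries, while fbxa-170 peaks in the wild-type F2.

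Features with the profile most like each mutated gene were sought over the libraries of its own extraction with at least 1e+06 counts, by Pearson's r of log2 CPM. These values describe libraries that share groups and depth. Over 20 libraries and 7419 features, meg-3 was most like the pseudogene WBGene00017152 (r = 0.922), ipla-2 (r = 0.919) and T19C9.10 (r = 0.909), and meg-4 stood at place 26 (r = 0.838). The meg-4 profile was most like K08H2.3 (r = 0.937), cas-1 (r = 0.924) and T14G8.3 (r = 0.908), which all lie on chromosome X. The level of K08H2.3 averaged 33.7 CPM in long-term and 31.0 in F15 mutants, 182 in the paternal and 137 in the maternal wild-type F2, and 63.1 in wild type. Over 11 libraries and 7933 features, pptr-1 was most like the non-coding RNA gene K10F12.8 (r = 0.945), ZC404.2 (r = 0.936) and saeg-1 (r = 0.928). The saeg-1 level was 188 ± 27.6 CPM in untreated pptr-1 mutants (n = 3) and 202 ± 31.7 in F6 mutants (n = 2), against 449 ± 17.5 in F6 wild type and 463 ± 48.3 in untreated wild type (SD, n = 3 each). In the column-kit libraries, where pptr-1 was not called, saeg-1 had 14.0 ± 6.29 CPM in long-term meg mutants and 424 ± 94.4 CPM in wild type.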

How the data were processed

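Each deposited file held whole-number counts of small RNA reads per feature for 1 library. The authors' tools were cutadapt, FastQC, HTSeq and DESeq2 on the ce11 build, per the submitters' processing notes, and versions, strand setting and treatment of multiply aligned reads are not given in the sources used here. Libraries were made with the NEBNext small RNA kit from RNA extracted with miRNeasy or TRIZOL, per the labels' protocols. Between 53.0% and 61.8% of tallied reads were assigned to features. Groups followed the labels.

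The test was edgeR's (version 4.0.16, under R 4.3.3, with the data.table package at 1.17.8), on features that reached 10 counts in 3 or more libraries of their extraction (10230 column kit, 10873 phenol), with TMM scaling, 1 mean per group, quasi-likelihood F test, Benjamini-Hochberg adjustment over all tested features and a threshold of 0.05. The SE of a log2 fold change was its absolute value over the square root of F. CPM is per 1e+06 feature counts. The script was tested on simulated data. DESeq2 1.42.0, other scalings, no filter, smaller fits, a replicate block and omission of each library were alternatives. Numbers were taken to pair libraries where groups shared 3 numbers and every same-numbered pair deviated together with r over 0.1: F15 mutants and wild type (0.109 to 0.185), and mutant and wild-type F2 of the paternal (0.192 to 0.300) and the maternal cross (0.163 to 0.192). Intervals and floors cover counting error only. Annotation came from Ensembl release 115. Python 3.11.15, numpy 2.4.6, pandas 2.3.3, scipy 1.17.1 and matplotlib 3.10.9 were used for summaries and figures.

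The 3 genes, the lists and the tests were chosen with earlier results of these data known. Other features were to be named by a rule: the 3 most like each gene (at least 5 CPM on average), and up to 6 listed genes and 6 neighbours called per comparison, by adjusted p. Not every neighbour under this rule is described, and only linc-6, C36C9.10 and fbxa-170 are given by library.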

Additional observations from a re-analysis of the deposited data

How the results depend on the processing

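None of the 14 main results of the 3 genes changed direction under any alternative run, and 136 of 167 alternative values stayed on the same side of the threshold. Relative log expression and total-count scaling ended the call of meg-4 in the paternal wild-type F2 (1.87 and 1.83). Dropping the count filter brought a call of meg-4 in long-term mutants (-0.96, adjusted p = 0.00538), as did a fit of only these 2 groups (-0.92, adjusted p = 0.0379). Such a fit also brought a call of meg-3 in the paternal wild-type F2 (0.88, adjusted p = 0.0406) and ended that of meg-4 in the maternal mutant F2 (-2.39, adjusted p = 0.383). With the replicate number as a block, calls ended for meg-3 in F15 mutants (-1.81) and meg-4 in the maternal mutant F2 (-2.26), where numbers pair libraries. Where libraries share only a number, the block brought a call of meg-4 in long-term mutants (-0.99) and ended that in the maternal wild-type F2 (0.99, adjusted p = 0.397). Untreated pptr-1 mutants and wild type share only 2 numbers (r = 0.274 and 0.346), and pptr-1 stayed called with the block (-0.97, adjusted p = 0.0152). The block ended or brought no other main call. Against wild type it ended the calls of meg-3 in the paternal (-1.64, adjusted p = 0.365) and maternal mutant F2 (-1.62, adjusted p = 0.0624), and it brought one of pptr-1 in long-term mutants (0.70, adjusted p = 0.0164). Leaving out 1 library moved meg-3 in long-term mutants between -2.62 and -1.22. It moved meg-4 between -2.60 and -2.11 in F15 mutants, -3.15 and -2.65 in the paternal and -3.31 and -1.72 in the maternal mutant F2, 1.65 and 2.14 in the paternal and 1.51 and 2.63 in the maternal wild-type F2. Over the alternatives the share of features called ran from 11.3% to 32.8% in long-term mutants, 4.82% to 10.6% in F15 mutants, 1.14% to 6.37% in the paternal and 0.968% to 4.28% in the maternal mutant F2 against wild-type F2. It ran from 1.02% to 14.8% in the paternal and 3.57% to 28.6% in the maternal wild-type F2, 0.958% to 11.5% and 14.2% to 35.4% in the mutant F2 against wild type, 4% to 10.8% in untreated and 1.72% to 14% in F6 pptr-1 mutants. The cause of these changes was not tested. Total-count scaling shifted the median of all features to -0.40 in the maternal mutant F2 and -0.28 in the maternal wild-type F2 against wild type, and left 0 of the 25 listed genes called higher in the 6 column-kit comparisons with wild type. Counts without long-term replicate 3 were added after the data were seen. Depth limits long-term replicate 3, in which meg-3 and meg-4 would be missed below 23.8 CPM.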
